A study of Homo sapiens with 2 samples.

Results

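Across 5 pairs of genes that lie on opposite strands of the same locus, an antioxidant or ferritin gene and its neighbour were compared between C28/I2 cells with and without a short hairpin RNA (shRNA) against FGF9. The pairs were SOD2 with WTAP, PRDX1 with MMACHC, PRDX2 with AC018761.2, TXNDC17 with MED31 and FTH1 with BEST1, and these 10 genes were found by name among the 58220 genes of the deposited tables. They were selected on their counts in these same 2 libraries, so the values are a description. C28/I2 is an immortalized human chondrocyte line. The control cells (shvoid, labelled WT) carried a void lentivirus and the knockdown cells (shFGF9-D1, labelled FGF9 knock down) a lentivirus with a single FGF9 shRNA, both at a multiplicity of infection of 10, with RNA taken at 72 hours and no further treatment. Each condition was sequenced as 1 library, which leaves the differences without replicates and the effect of the knockdown untested. Every interval given for a count, a share or a ratio covers counting error only.

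Cells handle reactive oxygen species in steps. Superoxide dismutases convert superoxide to hydrogen peroxide, and peroxiredoxins, which are regenerated by thioredoxins, reduce the peroxide to water. Ferritin stores iron in a form that cannot feed radical chemistry. Several of these genes are known targets of the transcription factor NRF2, the pathway that the study examined downstream of FGF9.

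FGF9 itself was at 0 counts in shvoid and in shFGF9-D1, and these counts give no check of the knockdown. The study itself measured FGF9 mRNA by qRT-PCR in C28/I2 cells with this shRNA and reports the knockdown. The libraries held 519192 counts in shvoid and 502774 in shFGF9-D1. A count of 0 allows up to 3 counts, or 5.71 CPM (counts scaled to a common library size) in shvoid and 6.04 in shFGF9-D1, if counting followed the strand of the RNA. The library kit kept the strand, but how the counting treated it is not given in the sources here. Of 8 chondrocyte marker genes, 0 reached 10 counts, and COL2A1 was at 0 in both libraries. The 8 genes summed to 8 counts in shvoid and 4 in shFGF9-D1. Of 4 fibroblast, 3 macrophage and 3 adipocyte markers, COL1A1 with 19 and 26 counts and CD68 with 14 and 7 reached 10. The part of these marker levels in the results below was not tested.

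The 10 genes overlap in different ways, as the annotation of GENCODE release 29 on GRCh38 shows. SOD2 (ENSG00000112096, chromosome 6 from 159669057 to 159745186, minus strand) and WTAP (ENSG00000146457, from 159725585 to 159756319, plus strand) share 298 exon bases in 2 stretches, both inside the first exon block of WTAP. Of these bases 160 are coding in some SOD2 transcript and 0 in WTAP. They make up 1.81% of the exon sequence of SOD2 and 4.64% of that of WTAP. PRDX1 (ENSG00000117450, chromosome 1 from 45511036 to 45523047, minus strand) shares its last exon, 379 bases of which 83 are coding, with the 3′ untranslated part of MMACHC (ENSG00000132763, from 45500053 to 45513382, plus strand).

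PRDX2 and AC018761.2 overlap in another way. AC018761.2 (ENSG00000267062, chromosome 19 from 12796823 to 12801849, plus strand) is annotated as an antisense RNA, and all 296 of its exon bases, 100% of them, lie within the outer exons of PRDX2 (ENSG00000167815, from 12796820 to 12801859, minus strand). None of these bases is coding in PRDX2. TXNDC17 (ENSG00000129235, chromosome 17 from 6640758 to 6644541, plus strand) and MED31 (ENSG00000108590, from 6643315 to 6651634, minus strand) run tail to tail and share 1227 exon bases, 58.3% of the exon sequence of MED31. FTH1 (ENSG00000167996, chromosome 11 from 61959718 to 61967660, minus strand) and BEST1 (ENSG00000167995, from 61949821 to 61965515, plus strand) also run tail to tail. They share 1267 exon bases, 471 of them coding in FTH1, which is 62.4% of the exon sequence of FTH1. The release holds a second gene named SOD2 on the same strand that the deposited tables do not list.

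**Figure D1:**
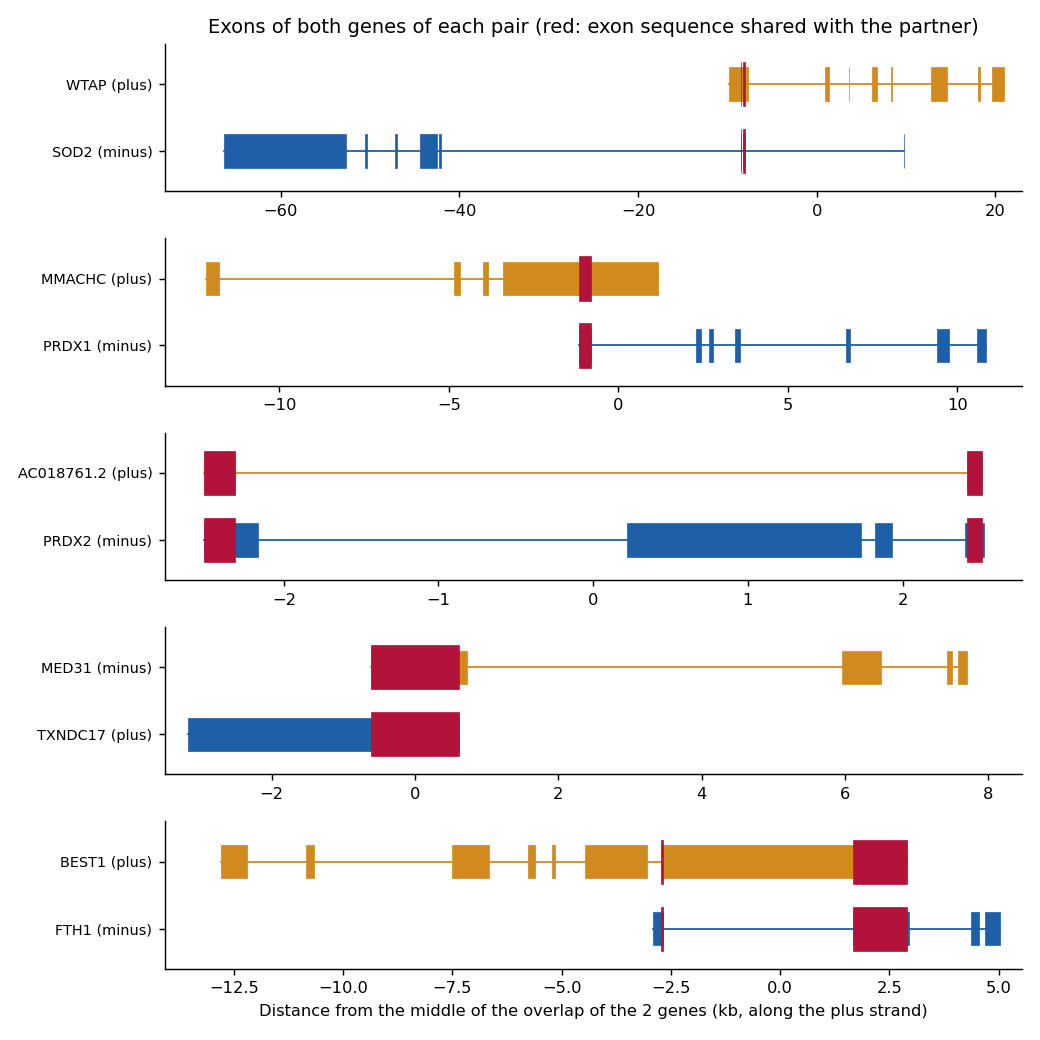
Exons (boxes) of both genes of the 5 pairs, with distance from the middle of their overlap in kb along the plus strand. Antioxidant and ferritin genes are blue, partners orange, and red marks exon sequence shared by both, from 296 bases in PRDX2/AC018761.2 to 1267 in FTH1/BEST1.

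The 3 start regions printed here show where a pair shares sequence or holds an antioxidant response element, the DNA motif that NRF2 binds. They come from RefSeq for GRCh38.p14 and run 5′ to 3′ on the strand of the named gene, from 250 bases before a transcription start to 50 after it. The table held windows for 6 of the 10 genes, with 4 starts for SOD2 and 2 for WTAP. The first lies at chr6:159726867-159727166 on the plus strand, and capitals mark the 266 bases it shares with a SOD2 start window read from the other strand. The second lies at chr19:12801751-12802050 on the minus strand, and capitals mark the 99 bases inside the bounds of AC018761.2. The third lies at chr17:6651556-6651855 on the minus strand, and capitals mark a match to TGACNNNGC on the other strand.
WTAP start region: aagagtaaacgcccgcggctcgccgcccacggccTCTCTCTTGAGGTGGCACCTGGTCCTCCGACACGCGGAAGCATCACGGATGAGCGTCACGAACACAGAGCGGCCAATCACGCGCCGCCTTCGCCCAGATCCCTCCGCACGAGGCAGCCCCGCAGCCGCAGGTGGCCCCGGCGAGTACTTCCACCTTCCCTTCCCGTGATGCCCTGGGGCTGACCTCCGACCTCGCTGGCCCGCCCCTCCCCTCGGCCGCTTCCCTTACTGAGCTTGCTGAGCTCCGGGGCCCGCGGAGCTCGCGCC
PRDX2 start region: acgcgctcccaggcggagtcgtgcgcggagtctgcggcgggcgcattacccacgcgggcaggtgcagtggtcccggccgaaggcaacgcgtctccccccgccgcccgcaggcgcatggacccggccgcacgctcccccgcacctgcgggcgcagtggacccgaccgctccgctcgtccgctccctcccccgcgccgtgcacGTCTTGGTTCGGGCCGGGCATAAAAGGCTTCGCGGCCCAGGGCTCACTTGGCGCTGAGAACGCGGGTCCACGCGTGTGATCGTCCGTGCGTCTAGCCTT
MED31 start region: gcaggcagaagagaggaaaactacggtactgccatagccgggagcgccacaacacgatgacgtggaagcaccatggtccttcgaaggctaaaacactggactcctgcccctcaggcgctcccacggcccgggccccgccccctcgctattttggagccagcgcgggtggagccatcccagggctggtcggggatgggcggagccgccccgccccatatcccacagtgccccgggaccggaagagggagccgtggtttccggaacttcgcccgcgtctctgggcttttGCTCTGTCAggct
The core of the antioxidant response element, TGACNNNGC, was searched on both strands. Among the windows of the 6 genes, that of MED31 held the single match, while 13.3% of all 35116 windows of 300 bases held at least 1. A match is a description of these letters and not of a bound site.

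SOD2 had the most counts in shvoid of the 5 antioxidant and ferritin genes, and its ratio lay on the other side of 0 from that of its partner. The log2 ratios of PRDX2 (0.50 against -0.06) and FTH1 (-0.73 against 0.37) did so too. SOD2 encodes the manganese superoxide dismutase of the mitochondrial matrix and had 106 counts in shvoid and 74 in shFGF9-D1 (201.7 and 149.0 CPM). The log2 ratio of shFGF9-D1 to shvoid was -0.44 (interval -0.88 to 0.01), scaled by the trimmed mean of M values (TMM). With scaling by total counts it was -0.47 (interval -0.92 to -0.03), so this interval included equal levels under TMM and excluded them under total counts. WTAP, a regulatory subunit of the complex that methylates adenosines in mRNA, had 174 counts in shvoid and 243 in shFGF9-D1, a log2 ratio of 0.56 (interval 0.28 to 0.85) or 1.48-fold.

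The balance within the SOD2 pair differed between the libraries, and no scaling enters that balance. SOD2 held 37.9% of the counts of the pair in shvoid (exact Clopper-Pearson 95% interval 32.2 to 43.8) and 23.3% in shFGF9-D1 (interval 18.8 to 28.4), so the intervals did not overlap. The log2 ratio of SOD2 was lower than that of WTAP by a difference of -0.996 (interval -1.51 to -0.49). Among 914 pairs of nuclear genes that share exon sequence on opposite strands and each reached 10 counts, the interval of this difference excluded 0 in 23.7%. Among the 5 pairs described here it did so in 1, and the members were chosen with these counts known. PRDX1 did not reach 10 counts, so its pair is not among the 914. The summed counts of SOD2 and WTAP were 280 in shvoid and 317 in shFGF9-D1, a log2 ratio of 0.26 (interval 0.02 to 0.50). This interval included equal levels with total counts (0.23, interval -0.01 to 0.46) and with DESeq2 size factors (0.18, interval -0.06 to 0.42). The DESeq2 size factors were 1 for both libraries, so that setting compares the counts unscaled, here and below.

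By level per length the order of SOD2 and WTAP reversed with the measure. In the authors' FPKM (fragments scaled by transcript length and library size), SOD2 stood at 412 in shvoid and 318 in shFGF9-D1, and WTAP at 129 and 178. Counts per kb of annotated exon gave SOD2 6.43 and 4.49 and WTAP 27.1 and 37.9. SOD2 has 16493 annotated exon bases, most of them in a long 3′ exon, while its counts and FPKM together correspond to 0.496 kb in shvoid and 0.462 kb in shFGF9-D1. Which SOD2 transcripts the FPKM was assigned to is not given in the tables.

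PRDX1 was close to the limit of counting. It encodes a cytosolic peroxiredoxin and had 1 count in shvoid and 5 in shFGF9-D1, a log2 ratio of 2.40 with an interval of -0.76 to 7.97. The difference was not detectable at this depth. MMACHC, which processes cobalamin (vitamin B12) inside the cell, had 248 counts in shvoid and 327 in shFGF9-D1, with a log2 ratio of 0.48 (interval 0.24 to 0.72). PRDX1 thus held 0.402% of the counts of its pair in shvoid (interval 0.0102 to 2.22) and 1.51% in shFGF9-D1 (interval 0.491 to 3.48). The log2 ratio of PRDX1 was higher than that of MMACHC by 1.48 (interval -1.14 to 4.09), which was not detectable at this depth. The FPKM of PRDX1 was 4.05 in shvoid and 23.2 in shFGF9-D1, and that of MMACHC was 113 and 152.

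PRDX2 had few counts beside its antisense partner. PRDX2, a second cytosolic peroxiredoxin, had 30 counts in shvoid and 40 in shFGF9-D1, with a log2 ratio of 0.50 (interval -0.22 to 1.23). AC018761.2 had 1092 counts in shvoid and 989 in shFGF9-D1, with a log2 ratio of -0.06 (interval -0.19 to 0.06). It ranked 65 and 76 among all genes by counts. The antisense RNA had 36.4 times the counts of PRDX2 in shvoid and 24.7 times in shFGF9-D1. All of these counts fall on 296 exon bases, so that AC018761.2 stood at 6323 FPKM in shvoid and 5875 in shFGF9-D1, against 47.9 and 86.4 for PRDX2. The log2(FPKM + 1) of PRDX2 differed by 0.84 between the libraries, within the interval of its count ratio. The log2 ratio of PRDX2 was higher than that of AC018761.2 by 0.55 (interval -0.14 to 1.24), a difference that was not detectable at this depth.

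TXNDC17 and MED31 were counted at similar levels, and both had more counts in shFGF9-D1. TXNDC17 is a thioredoxin-like oxidoreductase and had 51 counts in shvoid and 74 in shFGF9-D1, a log2 ratio of 0.62 (interval 0.08 to 1.16). MED31, a subunit of the Mediator complex that links transcription factors to RNA polymerase II, had 66 counts in shvoid and 91 in shFGF9-D1, a log2 ratio of 0.55 (interval 0.07 to 1.03). With DESeq2 size factors the ratio of MED31 was 0.46 (interval -0.01 to 0.94), which no longer excluded equal levels. The 2 ratios differed by 0.07 (interval -0.61 to 0.76). TXNDC17 held 43.6% of the counts of the pair in shvoid (interval 34.4 to 53.1) and 44.8% in shFGF9-D1 (interval 37.1 to 52.8). Their FPKM kept the same order, with 61.8 and 88.6 for TXNDC17 and 107 and 142 for MED31. Their sum was 117 counts in shvoid and 165 in shFGF9-D1, with a log2 ratio of 0.58 (interval 0.23 to 0.93).

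FTH1, the heavy chain of ferritin that oxidizes iron for storage, had 14 counts in shvoid and 8 in shFGF9-D1. Its log2 ratio was -0.73 (interval -2.19 to 0.63), and the difference was not detectable at this depth. BEST1, a calcium-activated chloride channel known from the retinal pigment epithelium, had 1195 counts in shvoid and 1460 in shFGF9-D1, a log2 ratio of 0.37 (interval 0.26 to 0.48) or 1.29-fold. BEST1 was the gene with the most counts of the 10 in both libraries, and it ranked 58 in shvoid and 36 in shFGF9-D1 among all genes. It had 85.4 times the counts of FTH1 in shvoid and 182.5 times in shFGF9-D1. FTH1 held 1.16% of the counts of the pair in shvoid (interval 0.634 to 1.94) and 0.545% in shFGF9-D1 (interval 0.236 to 1.07), and these intervals overlapped. The log2 ratio of FTH1 was lower than that of BEST1 by a difference of -1.06 (interval -2.29 to 0.17), which was not detectable at this depth. In FPKM the ferritin gene stood at 55.8 and 31.8 and BEST1 at 642 and 817.

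**Figure D2:**
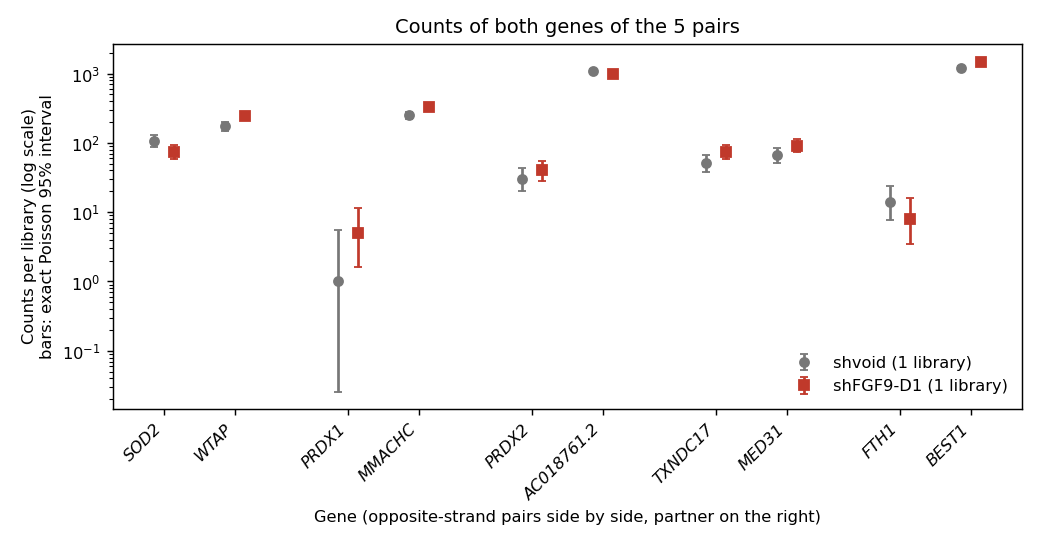
Counts per library (log axis) of the 10 genes in shvoid (grey circles) and shFGF9-D1 (red squares), 1 library each and not scaled, with partners to the right of each antioxidant or ferritin gene. Bars are exact Poisson 95% intervals, and in each pair the partner lies above the antioxidant or ferritin gene in both libraries, from 66 against 51 counts (MED31, TXNDC17) to 1460 against 8 (BEST1, FTH1).

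In all 5 pairs the partner had more counts than the antioxidant or ferritin gene in both libraries. The 5 antioxidant and ferritin genes summed to 202 counts in shvoid and 201 in shFGF9-D1, and the 5 partners to 2775 and 3110. Of the 10 genes, 9 reached 10 counts in at least 1 library and PRDX1 did not. None of the 9 was called by the 2-fold rule, under which levels must be at least 2-fold apart with equal levels outside the interval. Of the 4000 genes with at least 10 counts in a library, this rule called 10.1%, with 188 (4.7%) higher and 215 (5.38%) lower (148 and 257 with DESeq2 size factors). By the interval alone, WTAP, MMACHC, TXNDC17, MED31 and BEST1 were higher and 0 of the 9 were lower, while over the 4000 genes 15.8% were higher and 10.7% lower. Counting intervals narrow with counts, and 4 of the 5 partners had at least 100 counts in both libraries. The 4000 genes were not matched to them in counts. With DESeq2 size factors, which left the counts unscaled, 4 were higher and SOD2 and AC018761.2 were lower. Summed over each pair, 4 of 5 had an interval above equal levels under TMM, and 3 of them, all but the sum of SOD2 and WTAP, did under each of the 4 scalings. Among the 914 opposite-strand pairs, 27.9% of the sums lay above equal levels and 12.5% below. Those pairs do not include PRDX1 with MMACHC, and they were not matched to the 5 pairs in counts. PRDX1, PRDX2 and FTH1 held at most 1.51%, 3.89% and 1.16% of the counts of their pairs. The sums of those pairs therefore largely repeat the ratios of the partners. The sum of PRDX2 and AC018761.2 had a log2 ratio of -0.04 (interval -0.17 to 0.08), and with DESeq2 size factors it was lower (-0.12, interval -0.25 to -0.0015).

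**Figure D3:**
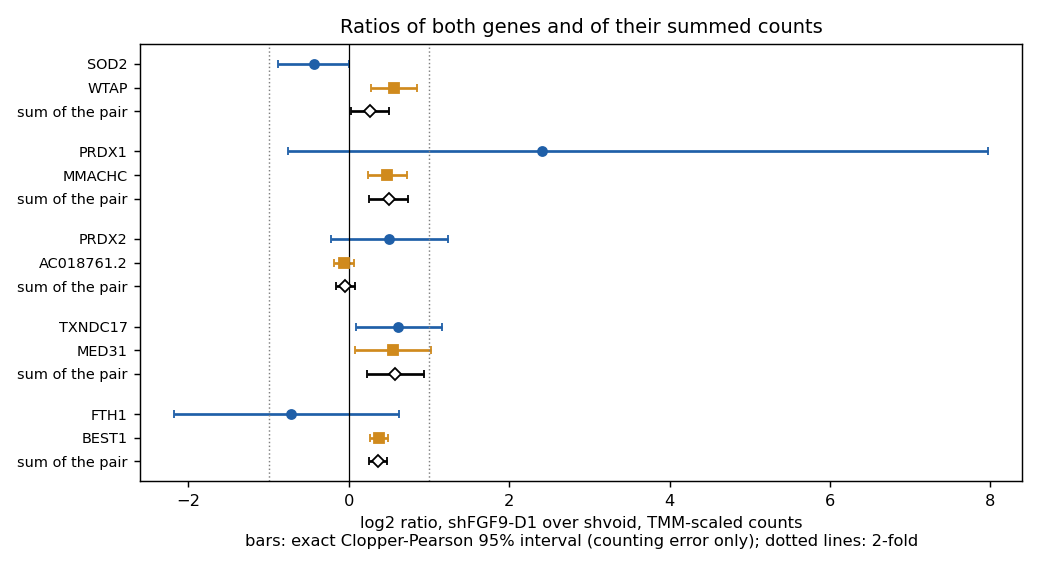
Log2 ratio of shFGF9-D1 to shvoid (TMM-scaled counts) for each gene and for the summed counts of each pair, with exact Clopper-Pearson 95% intervals. SOD2 (-0.44) and WTAP (0.56) lie on opposite sides of 0, as do PRDX2 and AC018761.2, and FTH1 and BEST1. TXNDC17 (0.62) and MED31 (0.55) lie on the same side, and the intervals of PRDX1 and FTH1 are the widest.

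The count table and the FPKM table were made from the same libraries and are not independent. The ratio had the same sign in both for all 10 genes, and for 89.6% of 3996 genes with at least 10 counts in a library and a count in both. The tables differed in the share held by each gene of a pair. FPKM divides by transcript length, and how far this accounts for the difference was not tested. SOD2 held 76.2% of the FPKM of its pair in shvoid and 64.2% in shFGF9-D1, and FTH1 held 7.99% and 3.74%.

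Other genes of the same antioxidant systems mostly had too few counts to compare. Of 5 superoxide dismutase and catalase genes, SOD2 and SOD1 reached 10 counts. SOD1, the cytosolic enzyme, had 29 counts in shvoid and 23 in shFGF9-D1 (log2 ratio -0.25, interval -1.11 to 0.59). Of 7 peroxiredoxin genes, PRDX2 alone reached 10 counts. Of 15 thioredoxin and glutaredoxin genes, 3 did, with TXNDC12 of the endoplasmic reticulum at 21 and 26 counts and the glutaredoxin GLRX at 17 and 24 beside TXNDC17. These 3 ratios had a median of 0.58 on the log2 scale (0.48 without TXNDC17), beside 0.04 over all 4000 genes tested. The interval of TXNDC17 was the only one of the 3 that excluded equal levels, and the list had a median of 0.08 when genes of any count entered. None of 8 glutathione peroxidase genes reached 10 counts, and the highest count among them was 5. None of the genes of these 4 lists was called by the 2-fold rule, where 10.1% of all 4000 genes were.

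Of 20 genes for ferritin and iron handling, 4 reached 10 counts and 0 were called, where 10.1% of all 4000 genes were. NCOA4, the receptor that carries ferritin to its breakdown in lysosomes, had the most, with 217 counts in shvoid and 200 in shFGF9-D1 (log2 ratio -0.04, interval -0.32 to 0.25). PCBP2, an RNA-binding protein that also carries iron, had 85 and 94 counts, and PCBP1, a related iron chaperone, had 7 and 10. Over the 4 genes, FTH1 included, the log2 ratios had a median of 0.10, and over the other 3 the median was 0.23. HMOX2 was at 0 counts in both libraries.

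Genes that work with the partners were compared in the same way. Of 8 genes of the m6A methyltransferase complex, 6 reached 10 counts and 1 was called, where 10.1% of all 4000 genes were. The median log2 ratio was 0.35 with WTAP included and 0.14 over the other 5. With no minimum on counts and WTAP included, the median was 0.62. The gene called was CBLL1, a complex component with 2 counts in shvoid and 11 in shFGF9-D1 (log2 ratio 2.54, interval 0.35 to 5.76). The catalytic subunit gene METTL3 had 25 and 26 counts, RBM15 had 22 and 35, ZC3H13 had 11 and 7, and RBM15B had 83 and 58 (log2 ratio -0.44, interval -0.94 to 0.07). Of 30 Mediator genes, 5 reached 10 counts and 0 were called. Their median log2 ratio was 0.32 with MED31 included (0.08 with no minimum on counts) and 0.16 over the other 4. Beside MED31 these were MED1 with 19 and 18 counts, MED26 with 16 and 11, MED29 with 8 and 14 and CCNC with 11 and 13. Of 11 cobalamin genes and 4 bestrophin genes, MMACHC and BEST1 were the members that reached 10 counts, and neither was called.

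Other antioxidant and iron genes also shared exon sequence with an opposite-strand gene. The 5 antioxidant and iron lists held 55 genes, of which 15 shared exon sequence in this way and 40 did not. The 15 include the 5 genes of the pairs, which were selected on their counts and are left out of the counts that follow. Of the remaining 10, 3 reached 10 counts, namely TXNDC12, PCBP1 and PCBP2, and of the 40, 3 did, namely SOD1, GLRX and NCOA4. In 5 of the 10 the opposite gene had more counts in both libraries, and in 2 the listed gene did. Over all 12369 genes with such an overlap, the opposite gene had more counts in both libraries for 4062 (32.8%), and the gene itself did for 3040. Where a gene had several opposite genes, the 1 with the most counts was taken. An overlap of only 2 genes enters once from each side, so the excess of 4062 over 3040 comes from loci with more genes. PCBP1 stood beside PCBP1-AS1 with 2354 and 2488 counts, and PCBP2 beside MAP3K12 with 636 and 588. TXNDC12 and TXNL1 were the 2 of these 10 genes with more counts than their opposite gene. Of all 4000 genes tested, 76.9% shared exon sequence with an opposite-strand gene, against 21.2% of all 58220. Whether a count stands for RNA of the named gene or of the opposite strand was not tested, for the 10 genes or for these lists.

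**Figure D4:**
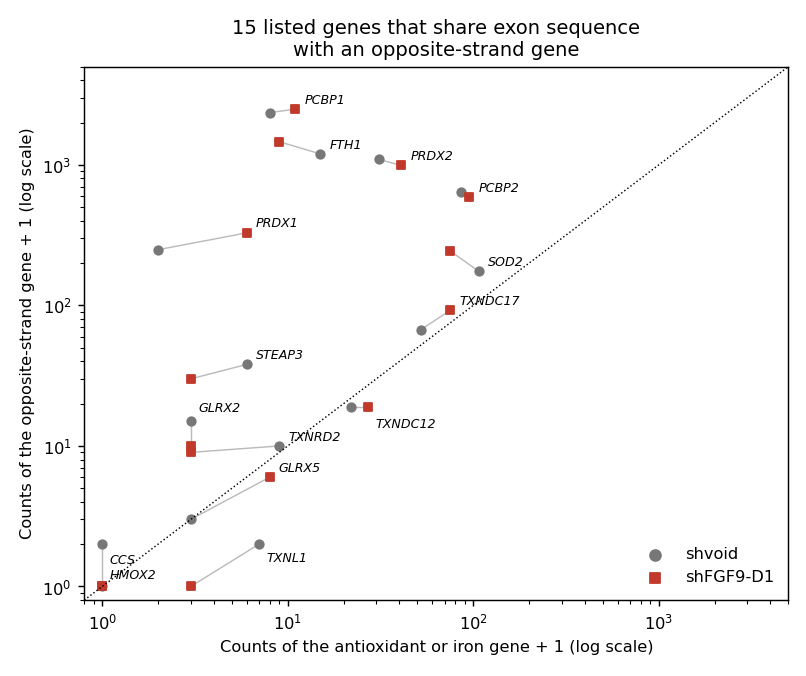
Counts + 1 of 15 antioxidant and iron genes (horizontal, log axis) against counts + 1 of the opposite-strand gene sharing exon sequence that had the most counts (vertical, log axis), in shvoid (grey circles) and shFGF9-D1 (red squares), joined by a line for each gene. The dotted line marks equal counts, and above it in both libraries lie the 5 genes selected for their pairs and 5 of the other 10.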

How the data were processed

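RNA-seq covered C28/I2 cells with shvoid and with shFGF9-D1, 1 library each. The submitters' processing notes name bcl2fastq 2.1.7, HISAT2, Cufflinks 2.2.1, Cuffdiff and the build GRCh38.p14. The authors' filters are not given in the sources here. The authors deposited 2 tables by gene, one of estimated counts, unscaled, and one of FPKM. Of 58220 genes, 57882 were matched by identifier to GENCODE release 29, and shared exon bases were found with bedtools 2.31.1.

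The estimated counts were rounded and then scaled by TMM (edgeR 4.0.16, R 4.3.3), with factors of 1.01 for shvoid and 0.988 for shFGF9-D1. Ratios, and shares of a pair, were given exact Clopper-Pearson 95% intervals, and single counts exact Poisson intervals (scipy 1.17.1). The difference between the log2 ratios of a pair was given a normal 95% interval after adding 0.5 to each count. A gene entered the comparison when it had at least 10 counts in a library. With 1 library per group, edgeR's test had no residual degrees of freedom. The calling script was first tested on simulated data with counting error only. It called 46.0% of genes with a simulated log2 change of 1 in either direction, 96.4% of those with 2, and 1.66% of unchanged genes. The alternatives tried were scaling by total counts, by DESeq2 1.42.0 size factors (1 for both libraries) and by TMM without mitochondrially encoded genes. Other count minimums, the interval alone, and FPKM with a pseudocount of 1 or 0.1 were tried as well.

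The genes, the lists (written from general knowledge) and the rules were chosen with earlier results of these data known. The named genes are the 10 members and, in each list, the genes with at least 10 counts in a library. HMOX2, TXNL1 and the opposite-strand genes of the lists were named after their values were seen. With 2 libraries a gene has a single ratio, so no gene was named for a pattern like that of a member. PCR reads without molecular identifiers are not independent molecules, so the intervals cover counting error only.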

Additional observations from a re-analysis of the deposited data

How the results depend on the processing

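Of 113 alternative values, 92 stayed within the counting interval, the half-width or the 1.5-fold margin set for them and 21 moved further. The log2 ratios of the 10 genes and of the 5 pair sums kept their sign under total counts, DESeq2 size factors and TMM without mitochondrially encoded genes, and those of the 10 genes also as log2(FPKM + 1) and log2(FPKM + 0.1). Shares moved with the unit. For SOD2 in shvoid, the share was 37.9% of counts, higher in FPKM and lower in counts per kb. As shares of FPKM in shvoid and shFGF9-D1, SOD2 held 76.2% and 64.2% of its pair, PRDX1 3.47% and 13.3%, PRDX2 0.751% and 1.45%, and FTH1 7.99% and 3.74%. As shares of counts per kb of exon, SOD2 held 19.2% and 10.6%, PRDX2 0.387% and 0.569%, TXNDC17 30.0% and 31.1%, and FTH1 4.90% and 2.35%, and PRDX1 held 5.05% in shFGF9-D1. With a minimum of 20 counts 119 genes were called higher and 130 lower, and by the interval alone 631 and 428. The median log2 ratio of all 4000 genes was 0.04 under TMM and -0.04 with DESeq2 size factors.

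PRDX1 had at most 5 counts in a library and FTH1 at most 14, and their intervals were the widest of the 10 genes. No paired analysis was possible because each group holds 1 library. Leaving out a replicate was not run for the same reason.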

Other observations

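In the Mediator list, 12 genes other than MED31 shared exon sequence with an opposite-strand gene, which had more counts in both libraries in 8 cases and fewer in 2. In the m6A methyltransferase list, 4 genes other than WTAP did, and the opposite gene had more counts in 1 case (RBM15B) and fewer in 3. The genes named here were chosen after their values were seen. AL137784.2, which shares 528 exon bases with CCNC on the opposite strand, had 94 counts in shvoid and 29 in shFGF9-D1 (log2 ratio -1.61), and it passed the 2-fold rule as lower, while CCNC, the cyclin of the Mediator kinase module, had 11 and 13 counts. MED14OS, opposite MED14, had 19 and 7 counts and passed the rule as lower too (log2 ratio -1.36, interval -2.85 to -0.05), with MED14 at 2 and 1. DCAF1, which shares 1325 exon bases with RBM15B, had 581 and 655 counts (log2 ratio 0.25, interval 0.09 to 0.42), beside 83 and 58 for RBM15B. PTOV1-AS1, opposite MED25, had 184 and 186 counts, with MED25 at 1 in each library. In the iron list, PCBP1-AS1 had a log2 ratio of 0.16 (interval 0.08 to 0.24) at more counts than any of the 10 genes of the 5 pairs.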
